A study of Homo sapiens with 4 samples.

Results

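The genes described here are those of the HSP40 (DNAJ) co-chaperone family, read in Kit225 cells after treatment with NC1153. Members were taken from a list of 36 gene symbols, and a probe set was used where the platform annotation of the Affymetrix HG-U133 Plus 2.0 array assigns it to a single gene on that list. In this way 35 of the 36 genes were measured, by 94 of the 54613 probe sets tested. DNAJC25 is the exception, since its probe set is shared with a read-through transcript.

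Kit225 is a human leukemic T cell line that grows only with interleukin-2, and all cultures were kept in medium with recombinant IL-2. The NC1153 group has 2 arrays of cells given NC1153, known as a blocker of the kinase JAK3, and the DMSO group has 2 arrays of cells given the solvent DMSO. Both exposures lasted 12 hours, and the labels give 25 mM NC1153 and 0.1% DMSO, a dose whose unit could not be checked here. No label says whether the arrays of a group came from separate cultures. The p-values rest only on how far these samples spread, pooled over many probe sets as well as on each. That spread may be technical.

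Proteins of the HSP40 family carry a J domain, which binds HSP70 and speeds its hydrolysis of ATP, so that HSP70 closes on an unfolded client. A nucleotide exchange factor then replaces ADP with ATP and the client is let go. DNAJA proteins share the domain layout of bacterial DnaJ, DNAJB proteins lack its zinc-binding region, and DNAJC proteins share the J domain alone. Members differ in the compartment they serve: the cytosol and nucleus, the lumen or membrane of the endoplasmic reticulum (ER), where the HSP70 is BiP, or the mitochondria. Cells commonly induce DNAJB1 under proteotoxic stress through heat shock factor, and DNAJB9 under ER stress.

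Signals are intensities on the array's linear scale, and the median of all signals was 72.3. A gene or probe set is called changed where its limma p-value, adjusted over all probe sets tested, was under 0.05. Log2 changes are NC1153 minus DMSO with their standard error. Where groups are said not to overlap, this only describes 2 against 2 arrays. It also held for probe sets far from passing, such as DNAJC12 223721_s_at (log2 change 0.12, adjusted p = 0.77). Its share over all probe sets was not counted. The median signal of an array was 88.6 and 61.8 with NC1153, against 69.7 and 69.5 with DMSO, and the authors' scaling factors were 6.68 and 2.97 for NC1153 and 2.88 and 2.66 for DMSO. The 18 spiked-in control probe sets had log2 changes of 0.21 to 0.66, with a median of 0.42, so values were also recomputed with each array centred on them (spike-in centring, under which the median over all probe sets became -0.41). Of 10 T cell markers measured, CD2, CD4, IL2RA and IL2RB lay above 72.3 on every array, while CD3D, CD3E, CD3G, CD5, CD28 and LCK did not. The summed signal of the 10 was 30426 and 26425 with NC1153 and 39725 and 38560 with DMSO. IL2RB, the IL-2 receptor beta chain, was the marker called, at 1101 and 946 with NC1153 and 7485 and 6421 with DMSO, while IL2RA had a log2 change of -0.01 (adjusted p = 0.99). Of the 5 myeloid markers none lay above 72.3 on every array (summed signals of 216 and 158 with NC1153, 330 and 230 with DMSO), and of 4 B cell markers CD79A and CD79B did (551 and 298 with NC1153, 407 and 317 with DMSO). The part of these shifts in the results was not tested.

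Promoter stretches of members are shown first, because several of the genes described below have heat shock element letters upstream of their start. RefSeq windows (GRCh38.p14) from 250 bases before to 50 bases after the transcript start were available for 34 members, DNAJC1 and DNAJC24 being the ones without. Capitals mark a pair of facing heat shock units, GAANNTTC or TTCNNGAA, and in DNAJB6 a run of 3 such units. Each stretch is 140 bases, printed on the gene's own strand. It ends at the base before the start, except in DNAJA1, where it covers bases -230 to -91. DNAJB4 lies at chr1:78004799-78004938 on the plus strand, DNAJB1 at chr19:14518398-14518537 on the minus strand and DNAJA4 at chr15:78264422-78264561 on the plus strand. DNAJB6 lies at chr7:157336864-157337003 and DNAJA1 at chr9:33025043-33025182, both on the plus strand. The first 3 genes were called changed. The other 2 are shown beside them because their windows hold 3 units in a row, a choice made after the values were seen, and in DNAJA1 that run lies past the start and is not printed.
DNAJB4: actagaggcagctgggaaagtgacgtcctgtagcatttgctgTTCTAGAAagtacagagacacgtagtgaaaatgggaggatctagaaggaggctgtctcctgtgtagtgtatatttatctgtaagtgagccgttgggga
DNAJB1: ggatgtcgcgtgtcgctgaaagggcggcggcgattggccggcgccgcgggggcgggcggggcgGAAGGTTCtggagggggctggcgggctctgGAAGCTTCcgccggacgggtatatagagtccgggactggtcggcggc
DNAJA4: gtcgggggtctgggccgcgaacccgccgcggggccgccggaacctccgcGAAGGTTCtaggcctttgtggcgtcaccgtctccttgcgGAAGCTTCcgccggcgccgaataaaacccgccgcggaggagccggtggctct
DNAJB6: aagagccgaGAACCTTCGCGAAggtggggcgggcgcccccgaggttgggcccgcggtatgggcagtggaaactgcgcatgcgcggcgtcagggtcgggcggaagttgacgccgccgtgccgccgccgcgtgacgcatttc
DNAJA1: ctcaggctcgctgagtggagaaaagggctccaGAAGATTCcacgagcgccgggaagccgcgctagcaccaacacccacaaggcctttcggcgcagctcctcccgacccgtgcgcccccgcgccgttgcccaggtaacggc

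The heat shock element of 3 units in a row, searched on both strands, was present in the windows of DNAJA1 (bases 4 to 16) and DNAJB6 (bases -131 to -119), and in 0.49% of all 35116 windows. The pair of units, a looser form chosen after the values were seen and contained in the longer motif, was present in 6 of 34 members and in 13.5% of all windows. These 6 are DNAJA1, DNAJA4, DNAJB1, DNAJB4, DNAJB6 and DNAJC15. DNAJC15, with the pair at bases -189 to -182, was not called and is not printed. Of the 6 called members with a window, 3 hold the pair, while DNAJB2, DNAJB9 and DNAJC21 do not. A member was counted if any of its windows matched, while the shares count single windows, so these units differ. DNAJB1 and DNAJA4 have 3 windows each and DNAJB4 has 2. In DNAJB1 the pairs lie at bases -77 to -70, -47 to -40 and 2 to 9, and in DNAJB4 at -98 to -91. No member window held the ER stress element, which 0.0769% of all windows hold, or the ATF4 element TTGCATCA, which 0.866% hold. A match describes letters in a window, and a missing one says only that these letters are not in that window.

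Within the family, 6 genes rose with NC1153, 1 fell and 28 did not pass, each gene being read from its brightest probe set. The 6 are DNAJB4, DNAJB1, DNAJB2, DNAJB9, DNAJC1 and DNAJC21, and the gene that fell is DNAJA4. Over all 19775 genes, 3.09% were called higher and 2.84% lower, 5.94% together. These shares include dim genes, whereas the brightest probe sets of 34 of the 35 members lay above the median signal on every array. Shares among bright genes alone are not given here. By probe set, 12 of the 94 were called higher and 1 lower, against 1.94% and 1.78% of all probe sets tested (3.72% together), and 28 had an unadjusted p under 0.05, as had 15.8% of all probe sets. The median log2 change of the 35 genes was 0.13, against 0.00 over all genes, with 21 positive and 14 negative. Of the 28 genes that did not pass, 27 lay above the median signal on every array, and their log2 changes ranged between -0.79 and 0.49.

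**Figure D1:**
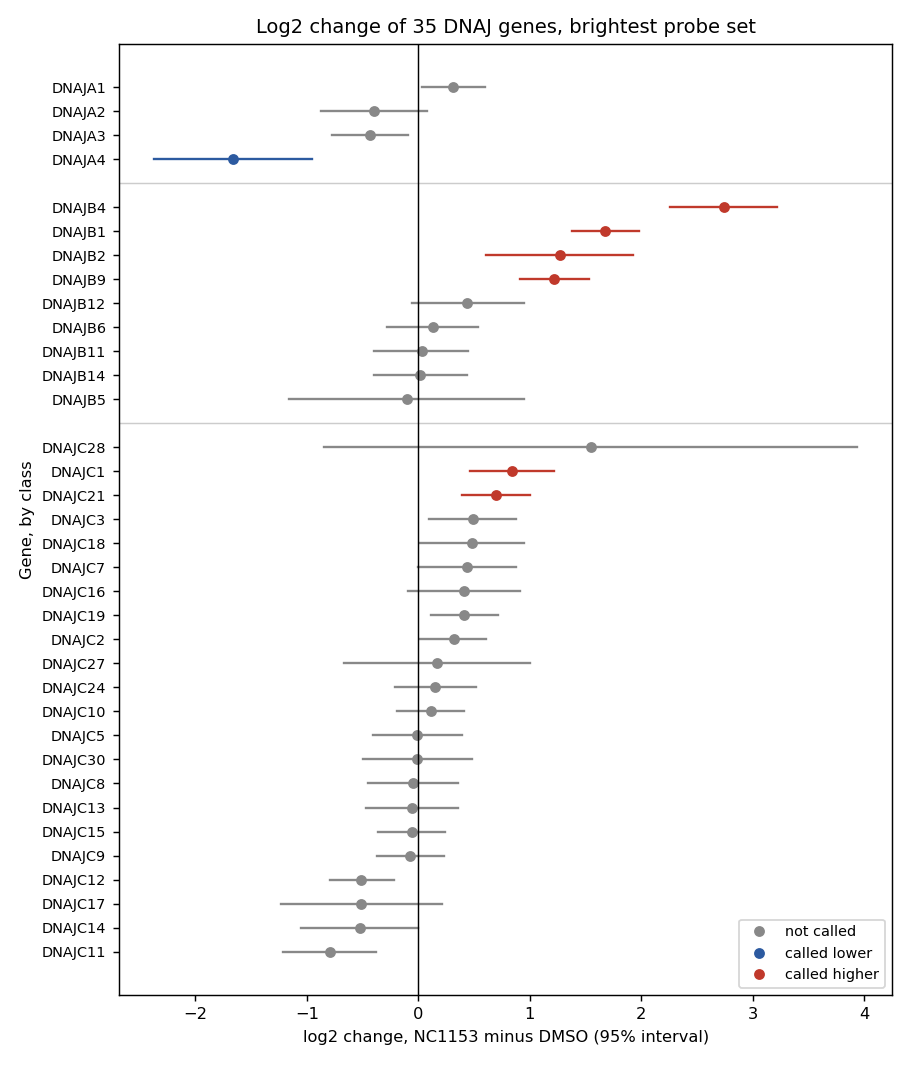
Log2 change (NC1153 minus DMSO) of the 35 measured DNAJ genes, each read from its brightest probe set, grouped by class, with 95% confidence intervals as bars. DNAJB4 and DNAJB1 lie farthest above 0 among the genes called higher, and DNAJA4, at -1.66, lies farthest below it.

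The DNAJB class held most of the genes called. Of its 9 measured genes, 4 rose and none fell, with a median log2 change of 0.44. Of the 22 DNAJC genes measured, 2 rose and none fell, with a median of 0.13. Of the 4 DNAJA genes, none rose and 1 fell, with a median of -0.41. For comparison, 3.09% of all genes were called higher and 2.84% lower. The difference between the classes was not tested, and with spike-in centring the medians were -0.84 for DNAJA, 0.01 for DNAJB and -0.30 for DNAJC.

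DNAJB4, a cytosolic relative of DNAJB1 that also acts with HSP70, had the largest rise. Its probe set 203810_at read 2576 and 3941 with NC1153 and 488 and 465 with DMSO. Probe set 203811_s_at read 2052 and 2996 with NC1153 and 208 and 280 with DMSO. On both probe sets the NC1153 arrays lay far above the DMSO arrays, with replicate 2 the higher of the NC1153 pair. The log2 changes were 2.74 ± 0.21 (6.68-fold, adjusted p = 0.00058) and 3.36 ± 0.24 (10.3-fold, adjusted p = 0.00045). With each array left out in turn, the log2 changes were 2.43 to 3.05 and 3.09 to 3.63. Such a fit leaves 1 array in a group and cannot measure the spread of that group. A call kept or lost in it, here or below, is therefore description only. Both probe sets remained called with spike-in centring (2.31, adjusted p = 0.017, and 2.93, adjusted p = 0.013). The RNA is that of whole cultures, so a change in the share of cells that carry a transcript and a change in its level per cell cannot be told apart.

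DNAJB1, the main heat-inducible HSP40 of the cytosol, rose as well. Probe set 200666_s_at read 6764 and 7071 with NC1153 and 2062 and 2262 with DMSO. Probe set 200664_s_at read 6710 and 5875 with NC1153 and 1573 and 1816 with DMSO. The groups were apart on both, and the arrays of a group lay close together. The log2 changes were 1.68 ± 0.13 (3.20-fold, adjusted p = 0.00066) and 1.89 ± 0.15 (3.71-fold, adjusted p = 0.00059). Spike-in centring gave 1.25 (adjusted p = 0.030) and 1.46 (adjusted p = 0.017). With each array left out, the log2 changes were 1.61 to 1.75 and 1.79 to 2.00.

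DNAJB2, which carries ubiquitin-interacting motifs and helps to pass clients to the proteasome, has 1 probe set here. It read 431 and 357 with NC1153 and 174 and 152 with DMSO, so the groups did not overlap. The log2 change was 1.27 ± 0.29 (2.41-fold, adjusted p = 0.049). The call was lost without each of the arrays, at adjusted p = 0.17 without NC1153 replicate 1, 0.074 without NC1153 replicate 2, 0.067 without DMSO replicate 1 and 0.11 without DMSO replicate 2. With spike-in centring it was 0.84 (adjusted p = 0.25), with quantile normalization 1.18 (adjusted p = 0.084) and on the log2(signal + 50) scale 1.06 (adjusted p = 0.061), none of which passed.

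**Figure D2:**
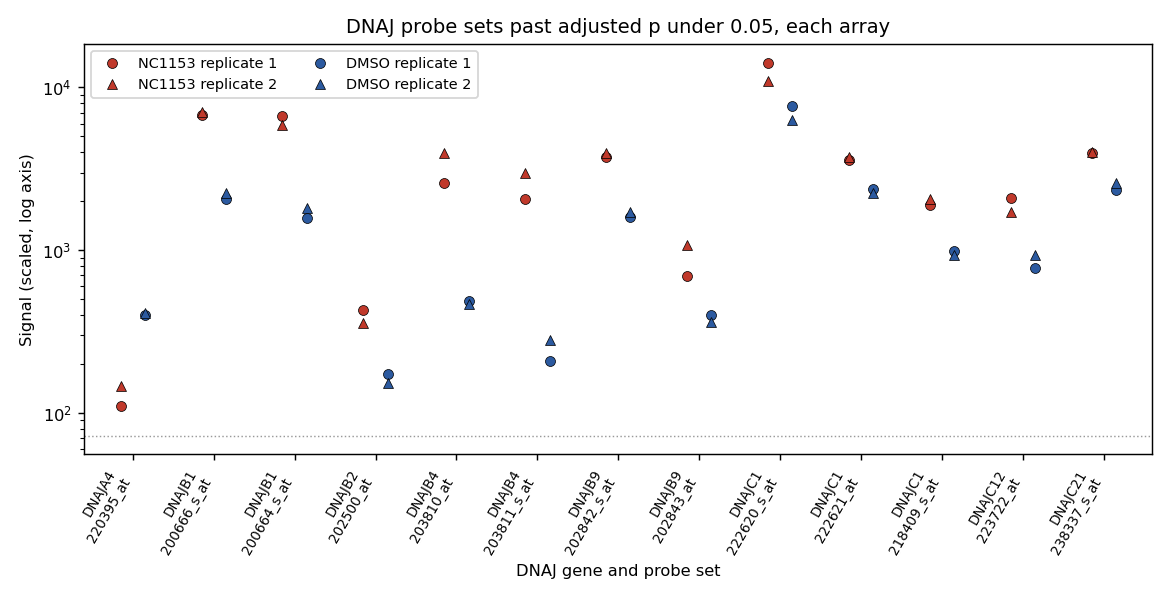
Signal on a log axis for each array, NC1153 left of DMSO, for the probe sets of DNAJ genes that were called changed. The dotted line is the median of all signals, 72.3. DNAJA4 is the probe set whose NC1153 arrays lie below its DMSO arrays.

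The other cytosolic DNAJB genes gave different values. DNAJB5, a close relative of DNAJB1, read 116 and 189 with NC1153 and 115 and 221 with DMSO, so its groups overlapped (log2 change -0.10, 95% confidence interval -1.16 to 0.95, adjusted p = 0.96). Its second probe set was dim. DNAJB6, which restrains aggregation of polyglutamine proteins, read 1286 and 1759 with NC1153 and 1380 and 1372 with DMSO (log2 change 0.13, interval -0.28 to 0.54, adjusted p = 0.83). Both probe sets shared with TMEM135 were left out of the counts. Of these, 208811_s_at had a log2 change of 0.41 (adjusted p = 0.25), and 208810_at, on which the groups overlapped, had 0.08 (adjusted p = 0.95). DNAJB6 holds the motif of 3 units printed above, and DNAJB4 and DNAJB1 hold the pair.

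The DNAJA class held the one gene that fell. DNAJA4, a cytosolic co-chaperone of HSP70, read 111 and 147 with NC1153 and 399 and 411 with DMSO on its probe set 220395_at. The groups did not overlap, and the log2 change was -1.66 ± 0.31 (3.16-fold higher in DMSO, adjusted p = 0.023). Its 3 other probe sets were dim and had positive log2 changes of 0.06, 0.36 and 0.69 (adjusted p = 0.86 to 0.99), and taking the median of the 4 probe sets on each array gave 0.52 (adjusted p = 0.85). The adjusted p was 0.064 without NC1153 replicate 1, 0.079 without DMSO replicate 1 and 0.073 without DMSO replicate 2, so the call was lost each time, and the change was -2.09 (adjusted p = 0.040) with spike-in centring. The decrease of DNAJA4 therefore rests on 1 probe set.

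DNAJA1, a heat-inducible cytosolic member, did not pass. It read 19738 and 20879 with NC1153 and 16798 and 15914 with DMSO, and the groups did not overlap. The log2 change was 0.31 (interval 0.03 to 0.60, adjusted p = 0.27), and 0.13 (adjusted p = 0.76) on its other probe set. DNAJA2, another cytosolic partner of HSP70, had log2 changes of -0.40 (adjusted p = 0.43) and -0.09 (adjusted p = 0.89). DNAJA3, which serves HSP70 in mitochondria, had values of -0.43 (adjusted p = 0.19) and -0.38 (adjusted p = 0.29).

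In the ER lumen the family has DNAJB9, DNAJB11, DNAJC3 and DNAJC10, and 1 of the 4 rose. On the brightest probe sets all 4 log2 changes were positive, with a median of 0.30, while 50.1% of all genes were positive. Taking the median over the probe sets of each gene gave 0.19. In the cytosol and nucleus, 4 of 19 genes rose and 1 fell, with a median of 0.13. The shares over all genes were 3.09% higher and 2.84% lower. With spike-in centring the medians were -0.13 for the ER lumen and -0.30 for the cytosol and nucleus, against -0.41 over all probe sets. The difference between the compartments was not tested.

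DNAJB9, which helps BiP to restrain the stress sensor IRE1 and takes part in the disposal of misfolded proteins, was the lumenal gene called. Probe set 202842_s_at read 3729 and 3956 with NC1153 and 1588 and 1709 with DMSO. Probe set 202843_at read 694 and 1075 with NC1153 and 397 and 362 with DMSO. The log2 changes were 1.22 ± 0.14 (2.33-fold, adjusted p = 0.0031) and 1.19 ± 0.25 (2.28-fold, adjusted p = 0.032). The remaining probe set, 1554462_a_at, read 1153 and 2481 with NC1153 and 1276 and 1391 with DMSO, so its groups overlapped (0.34, adjusted p = 0.68). The brightest probe set stayed called with each array left out, where its adjusted p reached 0.018, while 202843_at was lost without NC1153 replicate 2 (adjusted p = 0.097). With spike-in centring both lost the call (0.79, adjusted p = 0.11, and 0.76, adjusted p = 0.31), and 202843_at did so with quantile normalization (adjusted p = 0.054). Taking the median of the 3 DNAJB9 probe sets on each array gave 0.34 (adjusted p = 0.67).

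The other lumenal genes did not pass. DNAJC3, also called p58IPK, read 1022 and 965 with NC1153 and 716 and 695 with DMSO on its brightest probe set, groups that did not overlap (0.49, interval 0.10 to 0.88, adjusted p = 0.19). The groups overlapped on 1558080_s_at (0.65, adjusted p = 0.48) and 235341_at (0.17, adjusted p = 0.92). A dim DNAJC3 probe set, 208499_s_at, had 2.64 (adjusted p = 0.30). DNAJB11, which binds unfolded proteins together with BiP, read 5268 and 7865 with NC1153 and 6721 and 5948 with DMSO (0.03, interval -0.40 to 0.45, adjusted p = 0.98). For DNAJB11 the DMSO arrays lay between the NC1153 arrays. DNAJC10, a disulfide reductase that unfolds clients for disposal, read 3354 and 3362 with NC1153 and 3026 and 3210 with DMSO (0.11, interval -0.19 to 0.41, adjusted p = 0.80). Its 4 other probe sets lay between -0.38 and 0.07.

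DNAJC1, an ER membrane protein that recruits BiP and contacts ribosomes, rose on all 3 of its probe sets. Probe set 222620_s_at read 14220 and 10891 with NC1153 and 7705 and 6277 with DMSO. Probe set 218409_s_at read 1892 and 2073 with NC1153 and 982 and 934 with DMSO. The third, 222621_at, read 3569 and 3737 with NC1153 and 2368 and 2230 with DMSO. On each, both NC1153 arrays lay above both DMSO arrays. The log2 changes were 0.84 ± 0.17 (adjusted p = 0.027), 1.05 ± 0.16 (adjusted p = 0.0087) and 0.67 ± 0.14 (adjusted p = 0.029). With each array left out, the log2 change of 218409_s_at was 0.98 to 1.11. 222620_s_at did not pass when NC1153 replicate 1 (adjusted p = 0.086) or DMSO replicate 2 (0.15) was left out, nor 222621_at when NC1153 replicate 1 (0.054), DMSO replicate 1 (0.11) or DMSO replicate 2 (0.18) was. With spike-in centring none of the 3 was called (0.41, 0.62 and 0.24).

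The other ER membrane genes were DNAJB12 and DNAJB14, which take part in the disposal of membrane proteins, with DNAJC14, DNAJC16 and DNAJC18. DNAJC18 had a log2 change of 0.48 (adjusted p = 0.29), DNAJB12 0.44 (adjusted p = 0.40), DNAJC16 0.41 (adjusted p = 0.44), DNAJB14 0.02 (adjusted p = 0.98) and DNAJC14 -0.52 (adjusted p = 0.32). The probe set that DNAJC25 shares with the read-through transcript DNAJC25-GNG10 read 515 and 566 with NC1153 and 460 and 503 with DMSO (0.16, adjusted p = 0.81).

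DNAJC21, a cytosolic factor of large ribosomal subunit maturation, rose on its brightest probe set. That probe set, 238337_s_at, read 3944 and 3992 with NC1153 and 2328 and 2579 with DMSO, with a log2 change of 0.70 ± 0.14 (1.62-fold, adjusted p = 0.026). A second, 235032_at, read 2403 and 2228 with NC1153 and 1815 and 1739 with DMSO (0.38, adjusted p = 0.22). The groups did not overlap on either. The 5 remaining probe sets were dimmer and none was called. The adjusted p was 0.058 without NC1153 replicate 1, 0.23 without DMSO replicate 1 and 0.050 without DMSO replicate 2, none of which passed. With spike-in centring the change was 0.26 (adjusted p = 0.59), and the median of the 7 probe sets on each array gave 0.58 (adjusted p = 0.61).

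The probe sets of DNAJC12, a co-chaperone of the aromatic amino acid hydroxylases, disagreed. The brightest, 218976_at, read 7495 and 7964 with NC1153 and 10707 and 11257 with DMSO (log2 change -0.51 ± 0.13, adjusted p = 0.065). The dimmest, 223722_at, read 2093 and 1706 with NC1153 and 776 and 937 with DMSO, and was called higher (1.15 ± 0.18, 2.22-fold, adjusted p = 0.011). In between, 223721_s_at read 6257 and 5620 with NC1153 and 5555 and 5389 with DMSO (0.12, adjusted p = 0.77). The groups did not overlap on any of the 3, and the sign differed between the brightest and the dimmest. The decrease of the brightest, -0.51 within replicate 1 and -0.50 within replicate 2, passed with the replicate number as a block (adjusted p = 0.025), without dim probe sets (0.039) and with quantile normalization (0.042). The called probe set did not pass when NC1153 replicate 1 was left out (adjusted p = 0.059) or under spike-in centring (0.72, adjusted p = 0.16), and the annotation used here does not say which transcripts each probe set covers.

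**Figure D3:**
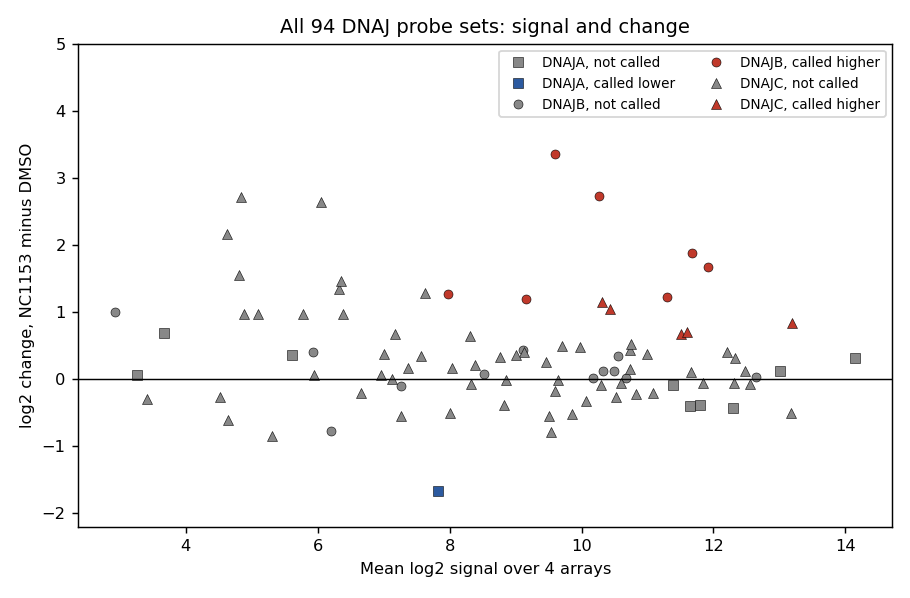
Log2 change of each of the 94 DNAJ probe sets (vertical axis, NC1153 minus DMSO) against its mean log2 signal over the 4 arrays (horizontal axis). Dim probe sets scatter widely without being called, and the probe sets of DNAJB4 and DNAJB1 lie highest among the bright ones.

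In mitochondria none of the 6 measured genes was called by limma, at a median log2 change of -0.03. DNAJC11, a protein of the inner membrane organising complex, was lower on both of its probe sets without passing. 1555360_a_at read 595 and 539 with NC1153 and 1027 and 935 with DMSO (-0.79 ± 0.18, adjusted p = 0.051). 215792_s_at read 605 and 605 with NC1153 and 912 and 857 with DMSO (-0.55, adjusted p = 0.16). The groups did not overlap on either, and the first was -0.79 within replicate 1 and -0.80 within replicate 2. Its call depended on the setting. It passed with the replicate number as a block (-0.79, adjusted p = 0.015), without dim probe sets (adjusted p = 0.021), on the log2(signal + 50) scale (-0.74, adjusted p = 0.036) and under spike-in centring (-1.22, adjusted p = 0.044). DNAJC19, a subunit of the protein import motor, had 0.41 (adjusted p = 0.16) and 0.53 (adjusted p = 0.092) on its probe sets. DNAJC15 had -0.06 (adjusted p = 0.92) and DNAJC30 -0.01 (adjusted p = 0.99) on their brightest, and DNAJC28 was dim.

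The remaining cytosolic and nuclear DNAJC genes covered ribosome, synapse, splicing and histone functions, and none was called. DNAJC7, which binds both HSP70 and HSP90, had 0.44 on its brightest probe set (adjusted p = 0.32) and 1.28 on 1556053_at (adjusted p = 0.13). DNAJC2, which sits on ribosomes, had 0.32 (adjusted p = 0.27), and DNAJC17, a nuclear protein linked to splicing, had -0.51 (adjusted p = 0.51). The brightest probe sets of DNAJC5, the cysteine string protein, DNAJC8, a spliceosome-associated protein, and DNAJC9, a histone chaperone, had -0.01, -0.05 and -0.07. DNAJC13, an endosomal protein, had -0.06, DNAJC24, which acts in diphthamide synthesis, had 0.15, and DNAJC27 had 0.17.

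Probe sets of the same gene did not always point the same way. Of 30 members with several probe sets, 17 had all of them on one side of 0. Among the 25 members with several probe sets above the median signal on all arrays, 19 did. The authors' deposited table holds RMA log2 values of 2252 of the 54675 probe sets on the array, picked by limma q-values. It lists 12 of the 94. Of the 13 probe sets called here, 10 are in it. Its values come from the same arrays as those read here, so this overlap is not independent evidence for the calls. In the authors' deposited table the RMA log2 difference was 3.42 for DNAJB4 203810_at, 1.65 for DNAJB1 200666_s_at, 1.08 for DNAJB2, 0.88 for DNAJC1 222620_s_at and 0.80 for DNAJC12 223722_at. For DNAJB9 the authors' deposited table holds 202843_at, at 1.38, and not the brighter 202842_s_at. The probe sets of DNAJA4 and DNAJC21 called here are not among its selection. The authors' deposited table also lists DNAJC7 1556053_at, at 0.64, and DNAJC19 225358_at, at 0.67, which were not called here.

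The proteins that J domain proteins act on were read from lists of HSP70 proteins and of exchange factors. Of 25 genes listed, 22 were measured. HSPA1A, HSPA1B and HSPA8 were not, since no probe set was assigned to any of them alone, and the counts here say nothing of them. Of the 13 HSP70 and HSP110 genes measured 3 rose and none fell (median 0.08). Of the 9 exchange factor genes 1 rose and 1 fell (median -0.02). Among all genes, 3.09% were called higher and 2.84% lower.

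HSPA1L, an HSP70 whose gene neighbours those of the inducible HSP70s, read 480 and 313 with NC1153 and 54.8 and 58.9 with DMSO. Its DMSO arrays lay below the median of all signals (2.77 ± 0.41, adjusted p = 0.0089), where the size of a log2 change depends on how low signals are treated. It was 2.04 on the log2(signal + 50) scale (adjusted p = 0.017), and 1.23 by RMA in the authors' deposited table. It did not pass when NC1153 replicate 1 was left out (adjusted p = 0.083). HSPA13, an ER-associated HSP70, read 8501 and 7678 with NC1153 and 4072 and 3670 with DMSO (1.06 ± 0.13, adjusted p = 0.0047). HSPH1, an HSP110 that also exchanges nucleotide, read 19943 and 17589 with NC1153 and 12082 and 13045 with DMSO (0.58 ± 0.13, adjusted p = 0.049). The adjusted p of HSPH1 was 0.068 without NC1153 replicate 1, 0.56 without DMSO replicate 1 and 0.29 without DMSO replicate 2.

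BAG3, a cytosolic exchange factor tied to autophagy of HSP70 clients, read 2608 and 2310 with NC1153 and 1001 and 1105 with DMSO (1.22 ± 0.16, adjusted p = 0.0048). GRPEL1, the exchange factor of mitochondrial HSP70, read 2047 and 2025 with NC1153 and 4076 and 3864 with DMSO (-0.96 ± 0.13, adjusted p = 0.0069). The groups did not overlap for any of these 5 genes. With spike-in centring HSPA1L (2.34, adjusted p = 0.040) and GRPEL1 (-1.39, adjusted p = 0.019) stayed called, while HSPA13 (0.63, adjusted p = 0.12), BAG3 (0.79, adjusted p = 0.10) and HSPH1 (0.15, adjusted p = 0.75) did not. HSPA5, which encodes BiP, the HSP70 that the ER members serve, read 12140 and 12186 with NC1153 and 15250 and 12028 with DMSO (-0.16, adjusted p = 0.71). HSPA9, the mitochondrial HSP70, read 13061 and 17521 with NC1153 and 13594 and 14010 with DMSO (0.13, adjusted p = 0.79).

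**Figure D4:**
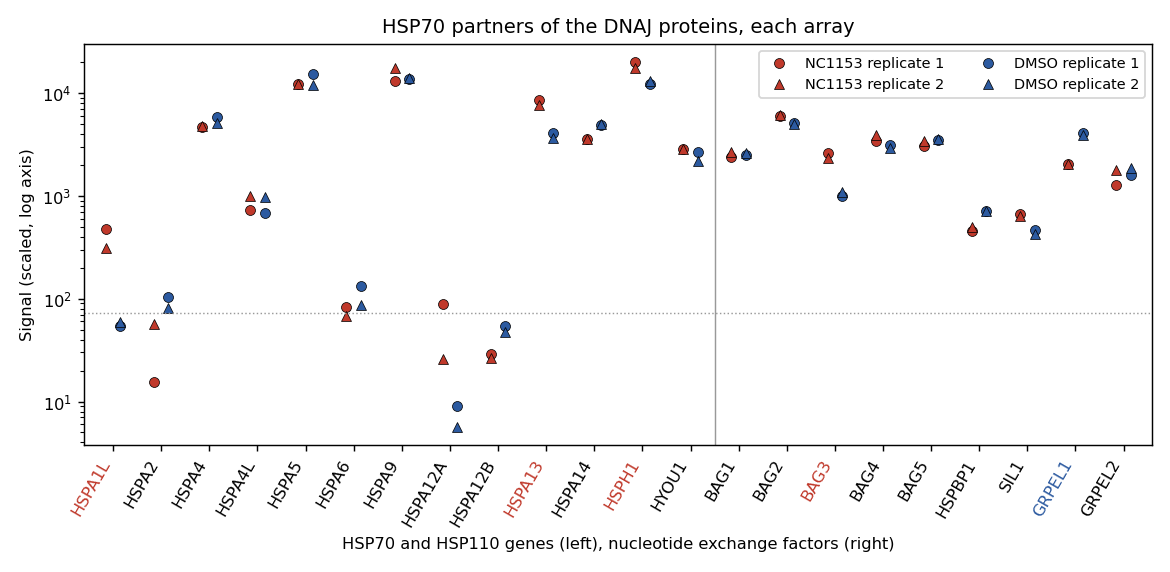
Signal on a log axis for each array, NC1153 left of DMSO, for HSP70 proteins and their exchange factors. The dotted line is the median of all signals, 72.3. HSPA1L, HSPA13, HSPH1 and BAG3 were called higher (red names) and GRPEL1 lower (blue name).

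The heat shock factor genes did not lie above 72.3 on every array and were not called by limma. HSF1 read 64.8 and 169 with NC1153 and 200 and 335 with DMSO, groups that did not overlap (log2 change -1.31, adjusted p = 0.25). HSF4 read 94.4 and 15.4 with NC1153 and 17.7 and 38.9 with DMSO (0.54, adjusted p = 0.91). HSF2 was not measured. Of 13 other J-domain genes listed for comparison, 11 were measured, none rose and 1 fell, with a median of -0.15. Beside them, 3.09% of all genes were called higher and 2.84% lower. DNAJC6, the auxilin that uncoats clathrin vesicles with HSP70, read 3766 and 4633 with NC1153 and 7983 and 7826 with DMSO (-0.92 ± 0.14, adjusted p = 0.011). The groups did not overlap, and it remained called with spike-in centring (-1.35, adjusted p = 0.031).

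All of these calls depend on the variance model of limma. When the prior variance was not allowed to follow the signal, limma called 0 of the 94 probe sets, and 12 had an unadjusted p under 0.05. A probe-by-probe ordinary test called 0 too, and 19 had an unadjusted p under 0.05. Without the trend, the limma adjusted p was 0.46 for DNAJB4 203811_s_at (3.36) and also for DNAJB2 (1.27). Shares of all probe sets called in these fits, or after the centring below, are not given here. The counts therefore do not set these members apart from the rest of the array. After centring on array medians, both DNAJB4 probe sets and no other member stayed called, at 2.65 (adjusted p = 0.043) and 3.27 (adjusted p = 0.024). The log2 changes of the members that lost the call stayed close to those above, at 1.59 (adjusted p = 0.11) and 1.80 (adjusted p = 0.051) for DNAJB1, 1.13 (adjusted p = 0.26) for DNAJB9 202842_s_at and 0.96 (adjusted p = 0.37) for DNAJC1 218409_s_at.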

How the data were processed

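RNA of Kit225 cells was measured on 4 HG-U133 Plus 2.0 arrays, grouped by their titles. The deposited values are linear intensities covering 54675 probe sets, 62 of them controls. All arrays share one mean once 2% of values is trimmed from each end, as global scaling would leave it. Which software made them is not given in the sources used here. The number of arrays limits precision. A second deposited table holds log2 values and raw p-values of 2252 probe sets, which per the file headers the authors processed by RMA and picked by limma q-values. It served only as a comparison.

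Log2 of each signal, with no pseudocount, entered a limma fit with group as the term (limma 3.58.1, R 4.3.3; lmFit, then eBayes with trend=TRUE). P-values, two-sided, were adjusted by Benjamini-Hochberg over all 54613 non-control probe sets, and every adjusted p of a gene is from this fit unless another setting is named. Prior degrees of freedom were 7.27 and residual ones 2, so most of the variance used for a probe set came from the trend over all probe sets. The script was first tested on simulated data with known changes. Their variances were drawn from the fitted limma prior, so that test cannot judge the variance model. Names come from the platform annotation, updated to RefSeq symbols (GRCh38.p14). It gave 1 gene for 41091 probe sets, several for 1801 and none for 11721. The probe set of highest mean log2 signal stood for its gene.

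Per-array values are given for members with any called probe set, for the ER lumen members and for DNAJA1, DNAJB5 and DNAJB6, and those of DNAJC11 were added after its values were seen. From each partner list the called genes are named. The members and all lists were chosen with earlier results of these data known. The design also named protein sequences and promoters of all called members. No protein table was used here. Promoters without a motif match are not printed, and neither is that of DNAJC15, which holds a pair. Alternatives covered the variance model, normalization, centring, a pseudocount of 50, dim probe sets, the choice of probe set, the replicate number as a block and leaving out each array.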

Additional observations from a re-analysis of the deposited data

How the results depend on the processing

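The counts below are DNAJ probe sets higher and lower, DNAJ genes higher and lower, and HSP70 partners called, which were 12, 1, 6, 1 and 5 as reported. In that fit 3.72% of all probe sets and 5.94% of all genes were called. Shares under the other settings are not given here. Whether these counts moved more or less than the whole array therefore cannot be told. Without a trend in the variance, and with the ordinary test, limma gave 0, 0, 0, 0 and 0 (12 and 19 probe sets at an unadjusted p under 0.05). Centring on the array median gave 2, 0, 1, 0 and 0, and spike-in centring 4, 2, 2, 2 and 2. Quantile normalization, log2(signal + 50) and leaving out dim probe sets gave 2, 2 and 3 lower probe sets and as many lower genes. The median over all probe sets gave 4 higher and 0 lower genes and turned DNAJA4 round, to 0.52. With single arrays left out, 8 to 10 probe sets were higher and 0 to 3 lower, 3 to 5 genes were higher and 0 to 3 lower, and 3 to 5 partners were called. Of the 13 probe sets called, 7 remained without NC1153 replicate 1 and 8 without DMSO replicate 2.

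With the replicate number as a block (replicate block), 3 probe sets and 3 genes were lower, DNAJC11 (adjusted p = 0.015) and DNAJC12 (adjusted p = 0.025) joining DNAJA4, and all 13 calls remained. It lost no call. Deviations of equally numbered arrays correlated with r = 0.055 over all probe sets and 0.12 over bright ones, so the numbers were not treated as a pairing. The array names that the file headers give hold one number per replicate pair, whose meaning is not stated there.

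Group medians moved as well. Spike-in centring gave -0.84 for DNAJA, 0.01 for DNAJB, -0.30 for DNAJC, -0.13 for the ER lumen and -0.30 for the cytosol and nucleus. Median centring gave 0.04 for DNAJC, 0.21 for the ER lumen and 0.04 for the cytosol and nucleus, where quantile normalization gave 0.06. The median over probe sets gave -0.01 for DNAJA, 0.29 for DNAJC, 0.19 for the ER lumen and 0.26 for the cytosol and nucleus. With single arrays left out, medians ranged over -0.51 to -0.31 for DNAJA, 0.34 to 0.64 for DNAJB, 0.05 to 0.23 for DNAJC, 0.31 to 0.38 for the ER lumen and 0.03 to 0.27 for the cytosol and nucleus. The cause of these moves was not tested.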
